A study of Mus musculus with 8 samples.

Results

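The MS4A genes form a family of 4-pass membrane proteins, and 9 of them (Ms4a1, Ms4a2, Ms4a4a, Ms4a4c, Ms4a6b, Ms4a6c, Ms4a6d, Ms4a7 and Ms4a14) are described here in mouse aortic vascular smooth muscle cells. They are 9 of the 24704 genes measured, found by matching the Entrez ID of each probe set to the gene symbol. Total RNA was hybridised to 8 single-colour arrays. On 4 arrays, titled AdN5, the cells carried an adenovirus and are described as overexpressing NFAT5, the transcription factor of the osmotic stress response. The 4 arrays titled AdPl are the adenovirus controls. All cultures were kept with virus for 24 h and then with cholesterol at 10 µg/ml for 72 h, so both groups carry virus and cholesterol. The labels do not say whether the 4 arrays of a group came from separate cultures, so p-values reflect how much these arrays scatter, and that scatter may be purely technical. The 9 genes were chosen by symbol, with the fold changes of AdN5 over AdPl on these same arrays already known, so their fold changes and calls describe these arrays and are no independent evidence for the family.

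MS4A proteins sit mostly in the membranes of blood cells and their tissue relatives, where several join immune receptors and alter their signalling. CD20, encoded by Ms4a1, marks B cells, and Ms4a2 encodes the beta chain of the high-affinity IgE receptor of mast cells and basophils. Macrophages and microglia are the best known sites of Ms4a4a, Ms4a6d and Ms4a7. In the arterial wall such expression is usually attributed to resident or infiltrating immune cells, and not to contractile smooth muscle.

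The deposited values are log2 signals made with RMA, which corrects the background, brings all arrays to the same distribution and summarises the probes of each gene. The median of an array was 3.76 on this log2 scale. Signals of different probe sets are not amounts that can be set against each other, since probes differ in how strongly they bind, and no detection call came with the values. Pairs of arrays correlated across genes at 0.990 to 0.992 within AdN5, 0.992 to 0.993 within AdPl and 0.989 to 0.992 for an AdN5 with an AdPl array. On the second principal component (17.1% of the variance) AdN5 replicate 4 (24.7) and AdPl replicate 3 (14.2) lay at one end and the other 6 arrays between -19.5 and 0.337, so calls are also given without this pair. Nfat5 itself read 7.06, 6.95, 6.98 and 6.88 on the AdN5 arrays and 7.06, 7.22, 7.11 and 7.25 on the AdPl arrays. It was therefore not higher in the group labelled as overexpressing it (log2 fold change -0.19 ± 0.078 SE, adjusted p = 0.360 in limma, exact two-sided permutation p = 0.0571), and the directions below follow the labels of the arrays, with AdN5 standing for the arrays labelled AdN5. Probe positions were not used here, so this reading does not settle whether the probe set can see the viral transcript.

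Ms4a14 and Ms4a6d were higher on the AdN5 arrays by 1.995-fold and 1.66-fold. Ms4a7 (1.51-fold) and Ms4a6b (1.57-fold) also had all AdN5 arrays above all AdPl arrays but did not pass an adjusted p of 0.05, and Ms4a6c lay between. Ms4a1, Ms4a2, Ms4a4a and Ms4a4c stayed below the array median on all 8 arrays and had log2 fold changes close to 0. Over all genes, 0.364% were called higher and 0.413% lower in AdN5, against 2 and 0 of the 9 MS4A genes. Groups did not overlap, with AdN5 above, for 4.22% of all genes and for 4 of the 9, and with AdN5 below for 4.56% and for 0. A log2 fold change above 0 was found for 51% of all genes and for 8 of the 9. Because the genes were chosen with this contrast in view, nothing is read from these shares. The median log2 fold change was 0.20 over the 9 and 0.0042 over all genes.

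**Figure D1:**
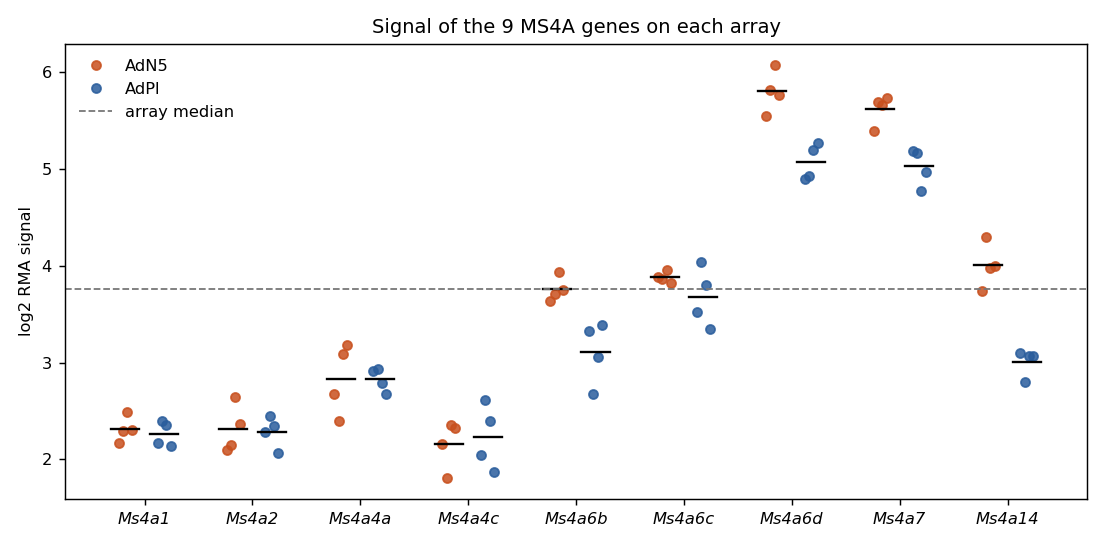
Log2 RMA signal (vertical axis) of each of the 9 MS4A genes on the 4 AdN5 arrays (left points) and the 4 AdPl arrays (right points), with a black bar at each group mean and a dashed line at the array median of 3.76. Ms4a6d and Ms4a7 lie above the median on all arrays, and Ms4a6b, Ms4a6d, Ms4a7 and Ms4a14 are the genes whose groups do not overlap.

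Ms4a14, a member whose function is little described, had the largest difference of the 9. Its signal was 3.74, 4.30, 3.98 and 4.00 on the AdN5 arrays and 3.10, 2.80, 3.07 and 3.07 on the AdPl arrays. The lowest AdN5 array thus stood 0.65 log2 units above the highest AdPl array, a gap wider than the span of the 4 AdN5 arrays (0.56) or of the 4 AdPl arrays (0.30). The group means were 4.00 ± 0.23 in AdN5 and 3.01 ± 0.14 in AdPl (SD, n = 4 each), and the log2 fold change was 1.00 ± 0.12 (SE; 95% interval 0.72 to 1.27; adjusted p = 0.00895 in limma over all genes). All 4 AdPl arrays and 1 AdN5 array lay below the array median, so the gene moved across the middle of the signal range. RMA compresses differences of such dim genes, and the size of the change is correspondingly uncertain. The call was kept in each of 8 fits that dropped 1 array (adjusted p 0.0119 to 0.0370 in limma) and was lost without AdPl replicate 3 and AdN5 replicate 4 together (0.0890), at a log2 fold change of 1.02.

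Ms4a7 is the neighbour of Ms4a14 on chromosome 19 and a gene of macrophages and microglia. Its signal was 5.40, 5.69, 5.66 and 5.74 on the AdN5 arrays and 5.19, 5.17, 4.78 and 4.97 on the AdPl arrays. The groups were separated by 0.20 log2 units, less than the 0.34 spanned by the AdN5 arrays and the 0.42 spanned by the AdPl arrays. Group means were 5.62 ± 0.15 in AdN5 and 5.03 ± 0.19 in AdPl (SD, n = 4 each), a log2 fold change of 0.59 ± 0.12 (SE; 95% interval 0.33 to 0.85) with an adjusted p of 0.0605 in limma. It passed where dim genes were left out before adjustment (0.0446 above the lower quartile of signal and 0.0217 above the median) and when a variance trend with robust settings was used (0.0110). With single arrays dropped it passed in 0 of 8 fits.

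Ms4a6d, a macrophage membrane protein that in mice has been found with the complement receptor VSIG4, was the second gene called. Its signal was 5.55, 5.82, 6.08 and 5.77 on the AdN5 arrays and 4.89, 4.92, 5.20 and 5.27 on the AdPl arrays. All AdN5 arrays were higher than all AdPl arrays, by 0.28 log2 units at the nearest. Group means were 5.80 ± 0.22 in AdN5 and 5.07 ± 0.19 in AdPl (SD, n = 4 each), and the log2 fold change was 0.73 ± 0.13 (SE; 95% interval 0.44 to 1.03; adjusted p = 0.0409 in limma). This call is close to the threshold. It was kept without AdN5 replicate 1 (adjusted p = 0.0469 in limma) and lost without any other single array: the values were 0.127, 0.125, 0.0777 and 0.0808 without AdPl replicates 1 to 4 and 0.108, 0.0944 and 0.0932 without AdN5 replicates 2 to 4. The log2 fold change itself stayed between 0.64 and 0.82 in those 8 fits. Without AdPl replicate 3 and AdN5 replicate 4 together the adjusted p in limma was 0.168.

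Ms4a6b and Ms4a6c are close relatives of Ms4a6d, known in mice from lymphocytes and monocytes. Ms4a6b read 3.64, 3.71, 3.93 and 3.75 on the AdN5 arrays and 3.32, 2.67, 3.06 and 3.38 on the AdPl arrays, without overlap. Its log2 fold change was 0.65 ± 0.15 (SE; 95% interval 0.31 to 0.99; adjusted p = 0.108 in limma), and it passed when a variance trend with robust settings was used (0.0362). Its signal was below the array median on 7 of 8 arrays. Ms4a6c read 3.88, 3.86, 3.96 and 3.83 on the AdN5 arrays and 3.53, 4.04, 3.81 and 3.35 on the AdPl arrays. Here the groups overlapped, since AdPl replicate 2 was the highest of all 8 arrays, and the AdPl arrays spread far more (SD 0.31) than the AdN5 arrays (SD 0.056). The log2 fold change of Ms4a6c was 0.20 ± 0.14 (SE; 95% interval -0.11 to 0.51; adjusted p = 0.615 in limma). The intervals of Ms4a6b and Ms4a6c overlap, and the difference between the pair was not tested. These paralogues share sequence, and as probe sequences were not used here, how far their probe sets read each other's transcripts was not tested.

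The 4 remaining members gave signals from 1.80 to 3.18 on all arrays, below the array median. They are Ms4a1, the CD20 gene, Ms4a2, the IgE receptor chain, Ms4a4a, which in human macrophages associates with the beta-glucan receptor dectin-1, and Ms4a4c, a relative of Ms4a4a. Ms4a1 averaged 2.31 ± 0.13 in AdN5 and 2.27 ± 0.13 in AdPl, and Ms4a2 averaged 2.31 ± 0.25 in AdN5 and 2.29 ± 0.16 in AdPl (SD, n = 4 each). Ms4a4a averaged 2.83 ± 0.37 in AdN5 and 2.83 ± 0.12 in AdPl, and Ms4a4c averaged 2.16 ± 0.25 in AdN5 and 2.23 ± 0.34 in AdPl (SD, n = 4 each). Their log2 fold changes lay between -0.069 and 0.048, with standard errors of 0.097 to 0.18, and the sign of each turned in at least 1 fit with an array left out. The 95% interval of Ms4a4a ran from -0.36 to 0.38 and that of Ms4a4c from -0.47 to 0.33, so a change of moderate size was not detectable at this signal and number of arrays.

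All 21 Ms4a genes that RefSeq places in the cluster of chromosome 19 were on the array, among 26 measured of the 32 genes listed there. The 12 genes outside the 9 gave 0 calls in limma, 1 of them had an unadjusted p under 0.05 (as did 3097 of all 24704 genes), 6 had a log2 fold change above 0, and their median was -0.0065. Of these, 11 lay below the array median on all arrays, with log2 fold changes from -0.25 to 0.33. The upper end was Ms4a4b, a gene of T cells in mice, at 1.97 ± 0.21 in AdN5 and 1.63 ± 0.21 in AdPl (SD, n = 4 each; adjusted p = 0.340 in limma). The exception was Ms4a4d, whose signal was far above the array median on all arrays: 8.79, 8.85, 8.73 and 8.78 in AdN5 and 8.91, 8.75, 9.02 and 8.90 in AdPl. The AdN5 and AdPl arrays of Ms4a4d overlapped, with a log2 fold change of -0.11 ± 0.079 (SE; 95% interval -0.29 to 0.070; adjusted p = 0.642 in limma). Ms4a4d lies between Ms4a6b and Ms4a6d on the chromosome, and its interval reaches neither their log2 fold changes of 0.65 and 0.73 nor the lower ends of their intervals.

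**Figure D2:**
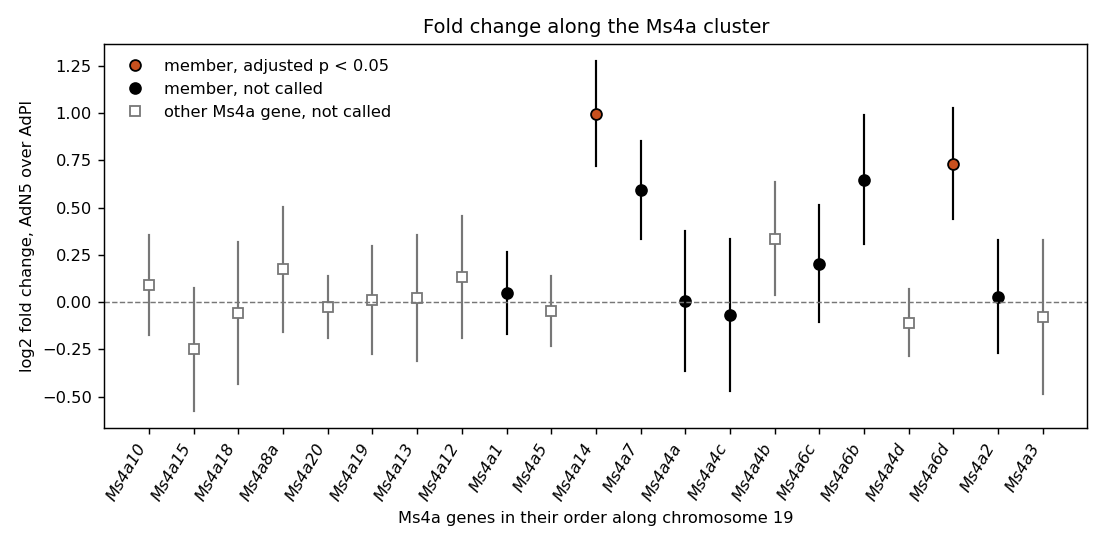
Log2 fold change of AdN5 over AdPl (vertical axis, bars are 95% intervals) for the 21 Ms4a genes in their order along chromosome 19, evenly spaced. The called genes Ms4a14 and Ms4a6d (orange) are not adjacent. Between them lie the uncalled Ms4a7 (0.59) and Ms4a6b (0.65) and uncalled genes near 0 such as Ms4a4a, Ms4a4c and Ms4a4d.

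The higher genes did not form 1 block along the cluster. Ms4a14 and Ms4a7 are adjacent, but Ms4a5, on the other side of Ms4a14, was at -0.045, and Ms4a4a, on the other side of Ms4a7, was at 0.0059. The 5 other measured genes inside the cluster, the noncoding RNAs AW112010 (0.027), 4930526L06Rik (-0.061) and BE692007 (-0.50), the gene Gm8369 (0.22) and the pseudogene Gm10212 (-0.071), were below the array median on all arrays, and 0 were called in limma. BE692007 had a spread of 0.66 (SD) on the AdPl arrays, larger than its difference between the groups.

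**Figure D3:**
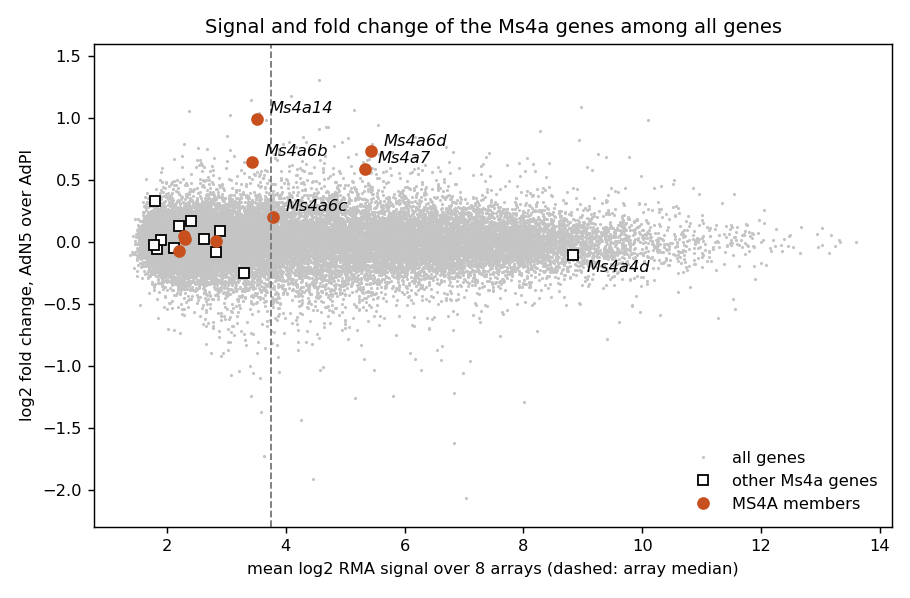
Mean log2 RMA signal over 8 arrays (horizontal axis) and log2 fold change of AdN5 over AdPl (vertical axis) for all 24704 genes (grey), the 9 MS4A genes (orange) and the 12 other Ms4a genes (white squares), with a dashed line at the array median. Ms4a14 is at the upper edge of genes of its signal, and Ms4a4d, with the highest signal value among the Ms4a probe sets, is near 0.

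Promoter sequences of Ms4a14, Ms4a7, Ms4a6b and Ms4a6c are shown because the first 3 genes had separated groups, while Ms4a6c, the gene whose promoter most resembled that of Ms4a6b among the promoters compared, did not. They come from RefSeq on the build GRCm38.p6, each running from 250 bases before to 50 after the start of the gene, 5′ to 3′ on the strand of the gene. The table held promoters for 7 of the 9 genes, all but Ms4a1 and Ms4a6d. Capitals mark matches on either strand to TGGAAA, the core bound by NFAT proteins and contained in the tonicity element of NFAT5, GAGGAA, the core of the myeloid factor PU.1, TTGCNNAA for C/EBP factors, and TATAAA.
Ms4a14, chr19:11314405-11314704, minus strand: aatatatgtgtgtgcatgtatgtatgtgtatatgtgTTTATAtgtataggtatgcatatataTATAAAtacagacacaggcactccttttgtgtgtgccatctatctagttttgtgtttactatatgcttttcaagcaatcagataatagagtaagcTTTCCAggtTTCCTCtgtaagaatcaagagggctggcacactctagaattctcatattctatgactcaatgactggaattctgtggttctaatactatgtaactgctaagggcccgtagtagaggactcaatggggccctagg
Ms4a7, first of the starts in the table, chr19:11336097-11336396, minus strand: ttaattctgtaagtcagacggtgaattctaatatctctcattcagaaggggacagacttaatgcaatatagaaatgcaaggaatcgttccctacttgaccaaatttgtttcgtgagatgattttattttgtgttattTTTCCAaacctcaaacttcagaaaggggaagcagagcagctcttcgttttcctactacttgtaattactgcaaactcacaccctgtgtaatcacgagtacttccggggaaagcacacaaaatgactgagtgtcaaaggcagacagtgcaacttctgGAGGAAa
Ms4a6b, chr19:11518309-11518608, plus strand: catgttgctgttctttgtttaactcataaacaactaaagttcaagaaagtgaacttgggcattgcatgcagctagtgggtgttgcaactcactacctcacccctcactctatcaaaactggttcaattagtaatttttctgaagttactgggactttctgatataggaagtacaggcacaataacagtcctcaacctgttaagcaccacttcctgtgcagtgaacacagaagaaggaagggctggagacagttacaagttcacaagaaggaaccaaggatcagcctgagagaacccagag
Ms4a6c, chr19:11469118-11469417, plus strand: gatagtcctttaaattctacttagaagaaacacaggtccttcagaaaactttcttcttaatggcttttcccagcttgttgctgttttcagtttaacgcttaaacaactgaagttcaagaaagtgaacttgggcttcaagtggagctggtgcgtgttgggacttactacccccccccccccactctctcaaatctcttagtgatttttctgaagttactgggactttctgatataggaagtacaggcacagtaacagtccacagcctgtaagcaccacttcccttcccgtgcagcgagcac
The NFAT core occurred in Ms4a14 (bases -93 to -88) and in this Ms4a7 promoter (-113 to -108), in both as TTTCCA on the strand of the gene. Ms4a14 also held the PU.1 core at -84 to -79 (TTCCTC), separated from the NFAT core by 3 bases, and TATAAA in both orientations (-214 to -209 and -188 to -183). In Ms4a7 the PU.1 core followed the start, at 44 to 49. None of the 4 motifs matched in Ms4a6b, in Ms4a6c or at the other listed start of Ms4a7, which is not shown.

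These motifs are common in windows of this length. TGGAAA was present in 21.43% of 32851 promoters and in 5 of the 19 Ms4a promoters, 2 of them among the 8 promoters of the 9 genes. GAGGAA was present in 28.28% of all promoters and in 3 of the 8, TATAAA in 13.62% and 1 of the 8, and TTGCNNAA in 10.8% and 0 of the 8. A match says only that the letters are there. In an end-to-end alignment with gaps, the Ms4a6b and Ms4a6c promoters had 192 identical bases, 64% of the window length of 300. The median was 52.7% over the 171 pairs of Ms4a promoters, and the closest pair was Ms4a4c and Ms4a4b at 76.7%. Bases set against gaps count as not identical here, so windows shifted against each other score lower than their paired bases alone would.

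Genes of proteins linked to MS4A members were not called. The myeloid list held 5 genes. Tyrobp, the signalling adaptor of TREM2, was at 4.54 ± 0.16 in AdN5 and 4.08 ± 0.15 in AdPl, and Trem2, the lipid receptor of microglia and macrophages, at 5.62 ± 0.20 in AdN5 and 5.16 ± 0.19 in AdPl (SD, n = 4 each). Both had groups that did not overlap, with log2 fold changes of 0.47 ± 0.11 (adjusted p = 0.103 in limma) and 0.46 ± 0.13 (0.167). Clec7a, the dectin-1 gene, was at 0.43 ± 0.14 (SE; adjusted p = 0.236 in limma) with groups that overlapped. Vsig4 stayed below the array median on all arrays (0.041), and the progranulin gene Grn was bright and at -0.032. Of the 6 measured genes of IgE receptor signalling, 6 had a log2 fold change above 0, against 51% of all genes, and 0 were called. The shared gamma chain gene Fcer1g was at 8.25 ± 0.13 in AdN5 and 7.94 ± 0.11 in AdPl (SD, n = 4 each; log2 fold change 0.30, adjusted p = 0.215 in limma), and the kinase genes Syk (0.25) and Btk (0.28), the adaptor Lat (0.055) and the phospholipase Plcg2 (0.086) were not called either. Fcer1a, the chain that binds IgE and the partner of Ms4a2, was below the array median on all arrays (1.81 in AdN5 and 1.77 in AdPl). Among 5 B cell receptor genes 0 were called, from Cd79b (-0.070) over Cd22 (0.051), Cr2 (0.079) and Cd79a (0.16) to Blnk (0.20).

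Of 14 measured macrophage markers 3 were called higher on the AdN5 arrays (0.364% of all genes), 0 lower (0.413%) and 11 were not called. All 14 had a log2 fold change above 0 (51% of all genes), with a median of 0.26 (0.0042 over all genes). Groups did not overlap, with AdN5 above, for 6 of the 14 (4.22% of all genes). The list was chosen with earlier results of these data known, so nothing is read from these shares. The mean of the list ran from 5.90 to 6.08 on the AdN5 arrays and from 5.64 to 5.73 on the AdPl arrays, without overlap. Adgre1, the F4/80 antigen, had a log2 fold change of 0.68 ± 0.083, Laptm5, a lysosomal protein of blood cells, of 0.53 ± 0.086 and Cd68, a macrophage lysosomal glycoprotein, of 0.52 ± 0.088 (SE; adjusted p = 0.00884, 0.0284 and 0.0334 in limma). With 1 array left out, Adgre1 was called in 8, Laptm5 in 1 and Cd68 in 0 of 8 fits. The smallest difference was that of Cd14 (0.11), and Cd163 was below the array median on all arrays. Of 5 markers of blood cells in general, Lcp1, an actin bundling protein, was called (0.60 ± 0.093 SE, adjusted p = 0.0251 in limma; in 0 of 8 fits after dropping 1 array), while Spi1, encoding PU.1, was at 0.34, Ptprc, the CD45 gene, at 0.25 and below the median on 7 of 8 arrays, Cd52 at 0.25 and Coro1a at -0.020. In RNA of a whole culture, more cells of a type and more RNA per cell cannot be told apart. Which cells of the cultures held the RNA of these markers or of the MS4A genes was not tested. Whether any macrophage RNA had a part in the MS4A differences was not tested either.

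**Figure D4:**
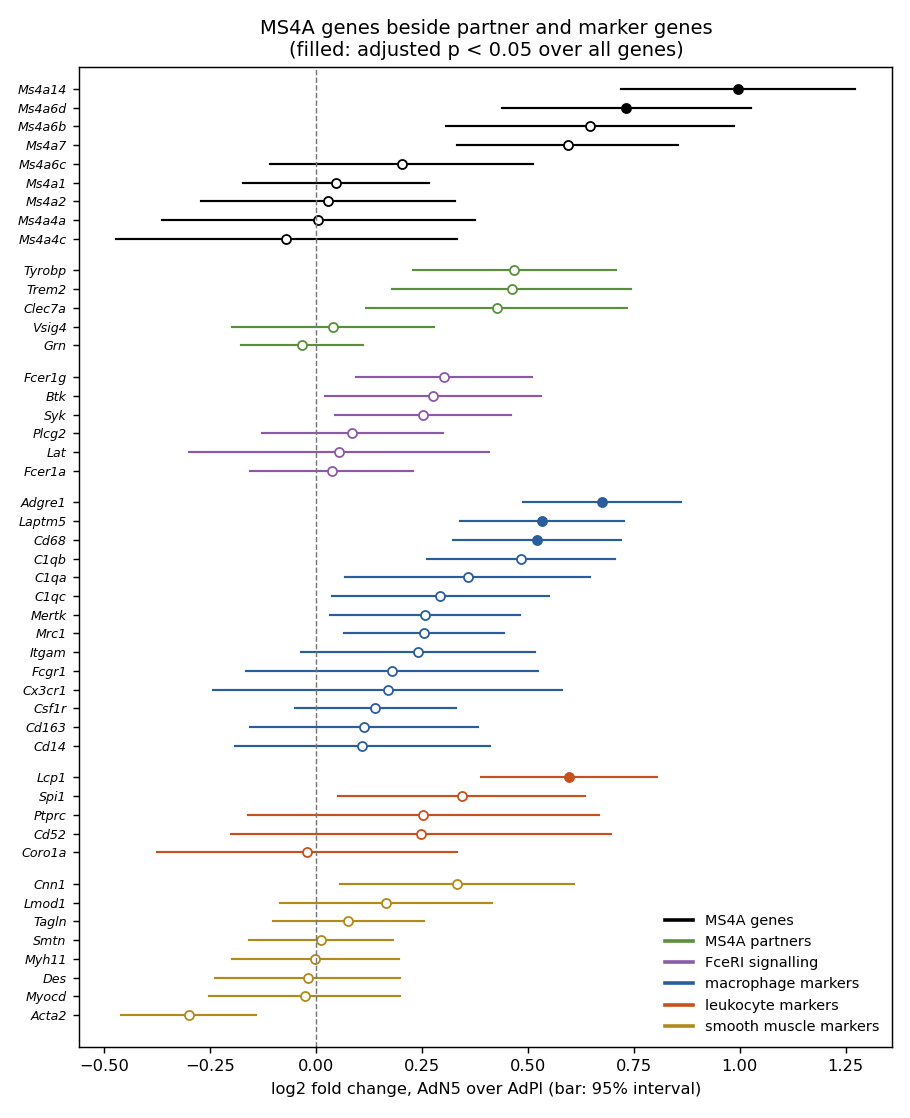
Log2 fold change of AdN5 over AdPl (horizontal axis, bars are 95% intervals) for the 9 MS4A genes, their partners, IgE receptor signalling genes and markers of macrophages, blood cells and smooth muscle, with filled points for an adjusted p under 0.05. All 14 macrophage markers lie above 0, with Adgre1 (0.68) close to Ms4a6d (0.73), while smooth muscle markers lie on both sides of 0.

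Most markers of B cells, mast cells and testis were dim, and the lists for monocytes, neutrophils and T cells are given at the end. All 7 measured B cell markers lay below the array median on all arrays, from Cd79b (-0.070) to Pax5 (0.19), with list means of 2.95 to 2.99 in AdN5 and 2.76 to 2.99 in AdPl. Of 9 mast cell markers 7 did so, and the ends were Cpa3 (-0.41) and Kit (0.35). Of 8 testis genes 6 did so, from Akap4 (-0.13) to Tnp1 (0.24). In these lists 0 genes were called. Of 8 smooth muscle markers 6 lay above the median on all arrays, Acta2, Tagln, Smtn and Myh11 among them. Acta2 was at 11.74 ± 0.079 in AdN5 and 12.04 ± 0.021 in AdPl (SD, n = 4 each). Myh11 was at 5.32 ± 0.14 in AdN5 and 5.32 ± 0.061 in AdPl (SD, n = 4 each). Des was below the median on 5 of 8 arrays, and Myocd was below it on all arrays. In this list 0 genes were called in limma, and its ends were Acta2 (-0.30) and Cnn1 (0.33).

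The genes most like an MS4A gene over the 8 arrays came from outside the family. Likeness was Pearson's r over all 8 arrays among 19693 named genes, a description that carries the difference between the groups and, with so many genes, holds high values in any case. For Ms4a6d they were Hsd17b11 (r = 0.987), Hoxa3 (0.978), Pla2g7 (0.978), Tnfaip3 (0.976) and Golph3l (0.972), with Spearman's rho from 0.881 to 1. For Ms4a14 they were E2f7 (r = 0.989), Trp53i11 (0.988), Ppt2 (0.980), Zmat2 (0.980) and Cdk18 (0.978), with rho from 0.881 to 0.976. After each group's mean was taken out, r lay between 0.856 and 0.927 for the genes of Ms4a6d and between 0.768 and 0.886 for those of Ms4a14. These genes were picked for a high r on the same arrays, so high values here are partly owed to that choice. By r over 8 arrays, the other members ranked from 105 to 12205 of 19693 for Ms4a6d and from 125 to 14500 for Ms4a14. Within the family, Ms4a14 and Ms4a6d had r = 0.913 over 8 arrays and 0.421 with the group means taken out, and Ms4a6d and Ms4a7 had 0.779 and -0.126. In AdN5, replicate 3 was highest for Ms4a6d, replicate 4 for Ms4a7 and replicate 2 for Ms4a14. In AdPl, replicate 4 was highest for Ms4a6d and replicate 1 for both Ms4a7 and Ms4a14. Some arrays led by little, such as AdN5 replicate 4 (5.74) over AdN5 replicate 2 (5.69) for Ms4a7. With 4 arrays per group, nothing is read from this order.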

How the data were processed

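The authors deposited log2 values; the submitters' processing notes name RMA and give it no version. The sorted values of the arrays differed by at most 0.00183. The sources used here give neither the chip definition nor the build of the probe sets. Probe sets (25428) are keyed by Entrez ID; 24705 had 1 gene symbol in GEO's platform table, 0 had several and 723 were not listed. Keeping the brightest probe set of each symbol gave 24704 genes. All 9 MS4A genes matched the RefSeq table of GRCm38.p6, used for names, gene order and promoters.

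Groups were compared over all genes and 8 arrays by two-sided moderated tests without covariates (lmFit, eBayes; limma 3.58.1, R 4.3.3), with calls at a Benjamini-Hochberg adjusted p under 0.05 and no filter on dim genes. The script was tested on simulated data. Python 3.11.15 and matplotlib 3.10.9 drew the figures. The number of arrays limits the precision (median SE 0.11).

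The members and lists were chosen with earlier results of these data known. Named were Nfat5, all Ms4a genes, the partner lists, called genes and both ends of each marker list, genes inside the cluster and the 5 most alike genes; a few more list members were named after their values were seen. Lists also covered monocytes and neutrophils, T cells, tetraspanins and the TMEM176 genes. Motifs were chosen after the expression values were seen. The labels do not say whether equal replicate numbers mark paired arrays. Deviations of equally numbered arrays from their group means correlated at 0.055, 0.051, -0.079 and -0.047 over all genes. Unequally numbered arrays were not set beside them, so these values do not settle whether the arrays are paired. Alternatives were the replicate block, renewed quantile normalization, median centring, filters on dim genes, array weights, a robust variance trend, every probe set by itself, arrays left out and stricter thresholds.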

Additional observations from a re-analysis of the deposited data

Results flagged for a closer look

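In 80 named genes, each group of 4 arrays was searched for 1 array far from the other 3 by Dixon's test at the 95% level. It marked 7 of 160 groups (4.4%), where chance marks about 1 in 20. Among the MS4A genes this was Ms4a14 on AdPl replicate 2, at 2.80 against 3.07 to 3.10 on the other AdPl arrays; without that array its log2 fold change was 0.93 (adjusted p = 0.0352 in limma). The others were Grn on AdN5 replicate 2 (12.23 against 12.21), Btk on AdPl replicate 2 (2.85 against 2.41 to 2.45), AW112010 on AdN5 replicate 3 (3.43 against 2.96 to 3.02), Gm10212 on AdPl replicate 1 (2.73 against 2.24 to 2.28), Pax5 on AdN5 replicate 2 (3.30 against 3.57 to 3.62) and Tnfaip3 on AdN5 replicate 3 (7.34 against 7.16 to 7.17).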

How the results depend on the processing

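The number of genes called (192) was 497 among genes above the median of signal, 781 with a variance trend and robust estimation, 42 at an adjusted p under 0.01, 110 with a change of at least 1.5-fold, 30 without AdPl replicate 3 and AdN5 replicate 4, 56 to 88 with 1 array left out, and 14 with the replicate number as a block. The count of MS4A genes called (2 of 9) was 4 with a variance trend and robust estimation, 1 at an adjusted p under 0.01, 1 to 2 with 1 array left out, 0 without AdPl replicate 3 and AdN5 replicate 4, and 0 with the replicate block. Under the block, the adjusted p in limma was 0.0980 for Ms4a14 and 0.0897 for Ms4a6d at the same fold changes. The labels do not say whether equal replicate numbers mark paired arrays, so neither fit can be preferred on that ground. Ms4a6b, Ms4a6c, Ms4a6d, Ms4a7 and Ms4a14 kept their sign in each alternative that gave them a value: log2 fold changes spanned 0.50 to 0.74, 0.092 to 0.32, 0.64 to 0.82, 0.47 to 0.67 and 0.90 to 1.08. The sign turned for dim genes with 1 array left out: Ms4a1 spanned -0.012 to 0.096, Ms4a2 -0.081 to 0.099, Ms4a4a -0.11 to 0.15 and Ms4a4c -0.19 to 0.058. Ms4a4a was also at -0.023 with array weights and at -0.12 without AdPl replicate 3 and AdN5 replicate 4. Filters on dim genes left 6 of the 9 genes above the lower quartile and 3 above the median, so the others have no value there. Low signal limits what the dim genes can show.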

Other observations

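Tmem176a and Tmem176b, which encode 4-pass proteins related to the MS4A family, lay on the other side of 0 from Ms4a14. Tmem176a was at 9.47, 9.50, 9.40 and 9.51 on the AdN5 arrays and at 9.67, 9.70, 9.77 and 9.72 on the AdPl arrays, without overlap. Tmem176b was at 9.84 ± 0.088 in AdN5 and 10.12 ± 0.10 in AdPl (SD, n = 4 each), also without overlap. Their log2 fold changes were -0.25 ± 0.069 and -0.28 ± 0.083 (SE), and neither passed (adjusted p = 0.174 and 0.199 in limma).

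The leukocyte tetraspanins, another family of 4-pass proteins, had a median log2 fold change of -0.042 over 8 genes, with 0 called. Cd151 was at 9.91 ± 0.040 in AdN5 and 10.25 ± 0.079 in AdPl (SD, n = 4 each; log2 fold change -0.34, adjusted p = 0.0784 in limma) and Cd81 at -0.086. Cd82 was at 0.25, Tspan32 at 0.32, Cd63 at 0.012, Cd37 at -0.030, Cd53 at -0.054 and Cd9 at -0.056. Cd53, a pan-leukocyte tetraspanin, was above the array median on all arrays (7.18 ± 0.22 in AdN5 and 7.23 ± 0.13 in AdPl, SD, n = 4 each).

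Of 7 monocyte and neutrophil markers 0 were called and 3 had a log2 fold change above 0, from Ly6c2 (-0.31) to Fcgr4 (0.41), and 4 were below the array median on all arrays. Ly6c2 and Plac8 were above it on all arrays. Of 7 T cell markers 0 were called, from Cd2 (-0.095) to Cd4 (0.39), and 5 were below the median on all arrays, while Trac was above it on all arrays.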
